A study of Mus musculus with 240 samples.

Results

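Atp13a5, a P-type ATPase transporter of the ATP13A family, and 9 further genes that mark brain pericytes were followed in RNA from laser-captured cells of a mouse model of glioma. They are 10 of the 34623 genes in the deposited table. They were chosen by symbol, with earlier results of these data known: Atp13a5 was lower in mutant cells at 90 days, and Vtn, Kcnj8, Abcc9, Rgs5, Pdgfrb, Higd1b, Notch3, Anpep and Ndufa4l2 were added as pericyte genes. The contrast of mutant and wild-type animals at 90 days is therefore described here and not tested.

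Pericytes are mural cells that sit on the wall of capillaries beneath the same basement membrane as the endothelium, and in brain they help to form the blood-brain barrier. Endothelial cells recruit them by releasing the ligand PDGF-B, which acts on the receptor encoded by Pdgfrb, and Notch3 is a receptor of mural cells for ligands on neighbouring cells. In mouse brain, Atp13a5, Vtn, Kcnj8, Abcc9, Higd1b and Ndufa4l2 are used as markers that separate pericytes from the other cells of the vessel wall and from the glia, while Rgs5, Notch3 and Pdgfrb are shared with vascular smooth muscle.

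RNA was sequenced from cells labelled as oligodendrocyte precursor cells (OPCs), the dividing glial cells that give rise to oligodendrocytes, and, in the tumour group, as brain tumor cells. Cells were cut from frozen brain sections by laser capture, and the bulk libraries are labelled tdT positive. Time is given as days after the start of tamoxifen (dpi), a drug used to switch on an inducible Cre recombinase. The labels used here do not name a Cre driver. The bulk groups were wild-type animals (WT) at 12 dpi (5 animals), 90 dpi (5) and 150 dpi (6), Trp53-/- Nf1-/- animals (CKO) at 12 dpi (7) and 90 dpi (7), and tumours of Trp53-/- Nf1-/- animals at 150 dpi (7), which makes 37 animals and 48 libraries. Small libraries came from CKO animals: 56 at 12 dpi and 56 at 90 dpi held 10 captured cells each, and 40 at either time were pool-and-split controls, in which captured cells are mixed and divided again. Levels of bulk libraries are given as CPM, counts scaled to a common library total, after TMM normalization, and levels of small libraries as CPM of their own totals.

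Total counts ran from 0.0937 M to 23.2 M per bulk library (median 10.0 M) and from 1.64 M to 6.49 M per small library (median 4.13 M). Nf1, the deleted gene, had 252.1 to 357.4 CPM in the 16 WT animals and 149.5 to 301.6 in the 21 CKO and tumour animals. The highest of the latter was CKO_20647 at 90 dpi, and the highest tumour, at 273.4 CPM, was also in the WT range. The value of CKO_20647 came from 1 of its 2 libraries. Nf1 was at 337 CPM of its own total in the library labelled GAGCT and at 180 in the other, ACTAA, both without TMM scaling. Nf1 in the library labelled GAGCT thus lay near the WT animals and not near its partner. That library also held 0 counts of 8 of the 10 pericyte genes, where ACTAA held 5 to 301 of each of those 8. Its Abcc9 count was 13 against 199, and of the 10 only Rgs5 was near its partner, at 198.7 against 226 CPM. Its cell type markers differed too: neuron markers summed to 24730 CPM against 8454 in ACTAA and astrocyte markers to 11700 against 2883. Oligodendrocyte markers summed to 491.1 against 2767 and microglia markers to 30.5 against 441.8, with 13202 genes found against 17853. Whether its label is wrong was not tested. No more than 1 of the 10 genes was at 0 in any other bulk library, 42 of which had all 10. The shallowest animal, WT_21167 at 90 dpi, had 6 counts of Atp13a5, 29 of Rgs5 and 0 of Higd1b, so that its values carry large counting errors. Values without them are given for a part of the results they touch.

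OPC markers were present in every bulk group, but in WT and CKO animals the summed neuron markers were higher, while in tumours the OPC markers were higher (4775 to 12880 against 281.7 to 1517 CPM). In WT animals at 12 dpi the 13 OPC markers summed to 2964 to 4344 CPM, 10 neuron markers to 7895 to 8772, 10 astrocyte markers to 2702 to 4017, 18 endothelial markers to 323.8 to 780.3, and the 10 pericyte genes to 312.8 to 702 CPM. The captured material therefore held RNA of several cell types beside the labelled one. In such material a lower level of these genes cannot be assigned to fewer pericytes, to less of their RNA per pericyte or to other cells.

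Promoter windows of 7 of the 10 genes could be matched in RefSeq (build GRCm38.p6). Shown are those of Atp13a5 at chr16:29378683-29378982 on the minus strand, of Vtn (chr11:78498870-78499169, plus strand), whose level followed that of Atp13a5 most closely within groups, of the neighbours Kcnj8 (chr6:142571565-142571864) and Abcc9 (chr6:142702225-142702524), both on the minus strand, and of Notch3 (chr17:32166841-32167140, minus strand), whose level stood nearest to that of WT in tumours apart from Anpep. Capitals mark matches to the motifs named after the sequences.
Atp13a5: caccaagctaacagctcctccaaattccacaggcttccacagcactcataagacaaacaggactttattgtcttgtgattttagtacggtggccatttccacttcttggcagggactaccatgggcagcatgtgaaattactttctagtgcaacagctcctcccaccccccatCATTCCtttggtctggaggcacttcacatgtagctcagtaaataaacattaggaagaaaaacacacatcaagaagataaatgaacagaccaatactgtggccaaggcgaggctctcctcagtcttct
Vtn: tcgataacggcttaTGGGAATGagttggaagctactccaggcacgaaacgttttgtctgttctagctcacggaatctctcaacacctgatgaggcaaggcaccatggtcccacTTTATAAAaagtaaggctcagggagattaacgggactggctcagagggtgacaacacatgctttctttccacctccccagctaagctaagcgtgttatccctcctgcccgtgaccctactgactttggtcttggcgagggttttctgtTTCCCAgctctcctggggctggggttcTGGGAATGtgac
Kcnj8: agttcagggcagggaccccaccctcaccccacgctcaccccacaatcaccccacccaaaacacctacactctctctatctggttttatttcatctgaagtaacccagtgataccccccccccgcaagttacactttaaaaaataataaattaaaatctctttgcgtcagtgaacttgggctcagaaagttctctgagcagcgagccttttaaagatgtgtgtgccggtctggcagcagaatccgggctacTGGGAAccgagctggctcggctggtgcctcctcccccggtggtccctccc
Abcc9: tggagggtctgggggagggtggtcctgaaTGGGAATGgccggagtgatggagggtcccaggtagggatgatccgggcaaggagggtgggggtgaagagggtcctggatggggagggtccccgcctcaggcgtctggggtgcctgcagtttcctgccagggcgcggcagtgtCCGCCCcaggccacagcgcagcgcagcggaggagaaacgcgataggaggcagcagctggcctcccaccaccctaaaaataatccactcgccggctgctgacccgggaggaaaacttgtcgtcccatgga
Notch3: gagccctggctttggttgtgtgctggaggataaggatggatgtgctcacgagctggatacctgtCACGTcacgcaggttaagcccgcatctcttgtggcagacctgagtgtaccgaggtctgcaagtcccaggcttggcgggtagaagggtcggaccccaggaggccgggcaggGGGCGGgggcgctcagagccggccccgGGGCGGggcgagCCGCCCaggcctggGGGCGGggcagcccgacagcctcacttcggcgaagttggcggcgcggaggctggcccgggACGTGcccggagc
The Atp13a5 window had the lowest GC content of the 7, 45.7% with 2 CpG dinucleotides, against a median of 52.7% and 7 over all 32851 promoter windows. Those of Notch3 (70.0% GC, 25 CpG) and Anpep (72.3%, 28) were the richest. Motifs were searched on both strands as plain letters. The TEAD motif GGAATG, or CATTCC on the other strand, was found in Atp13a5 at -77 relative to the start site, in Vtn and in Abcc9, and 14.7% of all windows hold it. The RBPJ core TGGGAA, or TTCCCA on the other strand,, to which the DNA-binding partner of Notch receptors binds, was in Vtn, Kcnj8 and Abcc9 and in 25.6% of all windows. In Vtn and Abcc9 both motifs share letters, since a TGGGAA is followed there by TG. The GC box GGGCGG, or CCGCCC on the other strand, was in Abcc9, Notch3 and Anpep and in 35.7% of all windows. The hypoxia response core ACGTG, or CACGT on the other strand, was in Notch3 and in 19.6%, and the TATA box TATAAA, or TTTATA on the other strand, in Vtn and in 13.6%. The forkhead motif TGTTTAC, or GTAAACA on the other strand, was in 0 of the 7 and in 3.65% of all. Kcnj8 and Abcc9 encode the pore (Kir6.1) and the sulfonylurea receptor (SUR2) of 1 ATP-sensitive potassium channel and lie 16247 bases apart. Atp13a5 (chr16:29231851-29378732, ENSMUSG00000048939) lies 17120 bases from its relative Atp13a4.

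Rgs5 and Vtn stood above the other 8 genes when levels were compared per kilobase of exons. In WT animals at 12 dpi Rgs5, a regulator of G-protein signalling, had 68.1 ± 19.7 CPM per kilobase (SD, n = 5) and Vtn, which encodes the adhesive glycoprotein vitronectin, 35.0 ± 15.4. Atp13a5 was the third at 6.96 ± 2.00, and the animals' ranges for Vtn and Atp13a5 were apart. Below it followed Higd1b (5.86), Pdgfrb (4.30), Kcnj8 (3.81), Abcc9 (3.21), Ndufa4l2 (2.17), Notch3 (1.70) and Anpep (1.47 CPM per kilobase). All of these neighbours in the order overlapped. Atp13a5 was the third in each WT and CKO group, while in tumours it was the eighth at 1.34 CPM per kilobase, where all neighbours in the order overlapped.

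**Figure D1:**
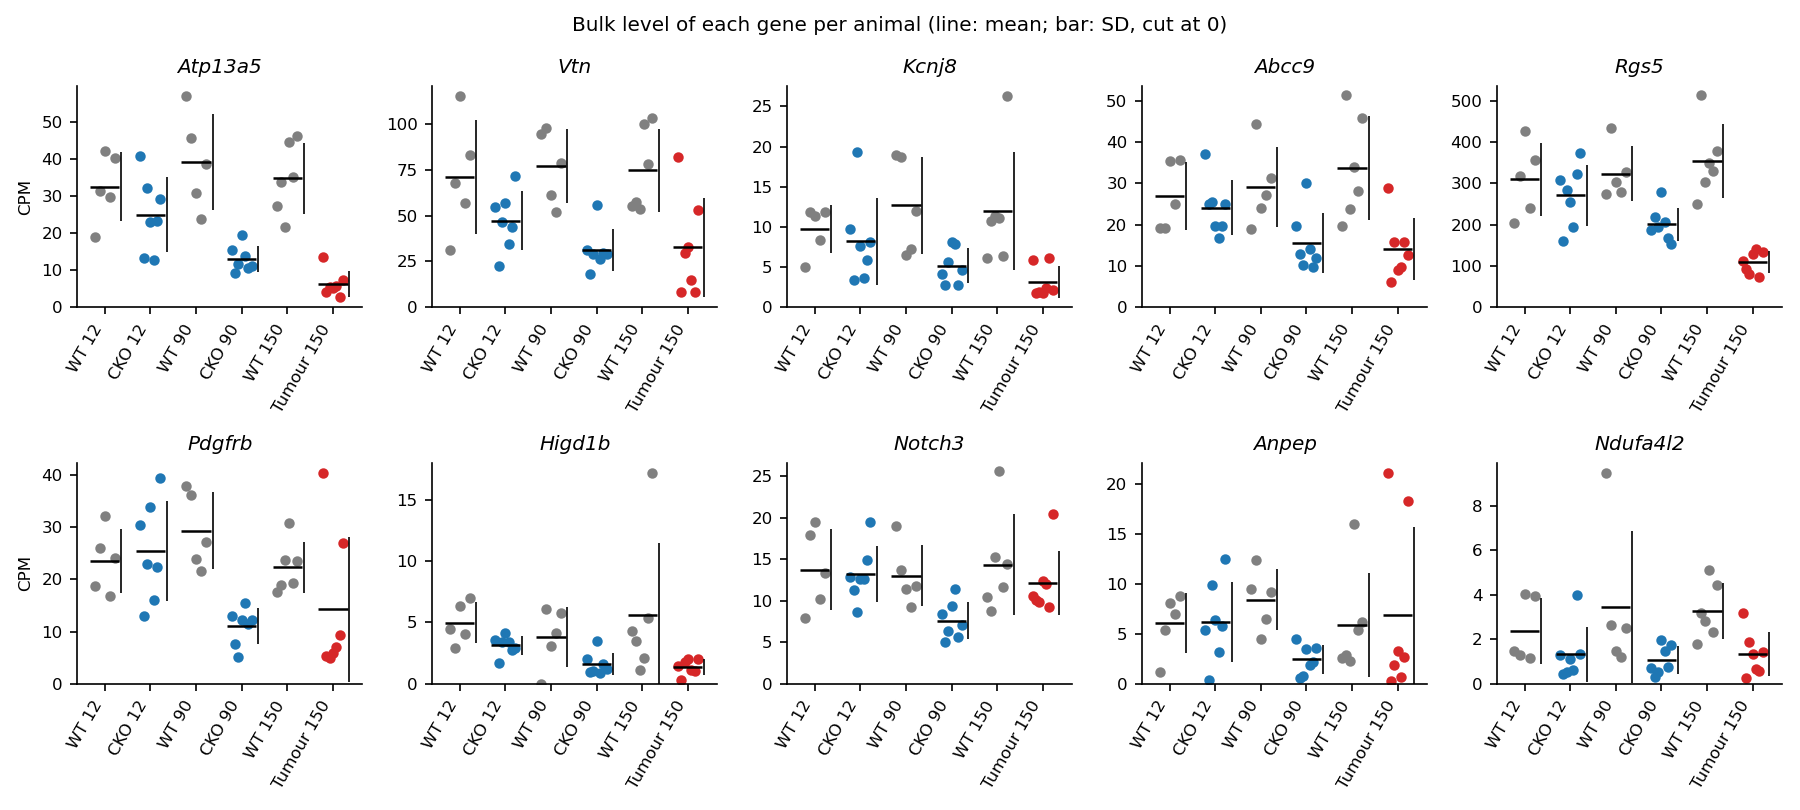
Level of the 10 pericyte genes in each bulk animal (y axis, CPM) in the 6 groups (x axis). Points are animals, lines are group means and bars are SDs, cut at 0. Atp13a5 lay between 21.5 and 46.2 CPM in WT animals and between 2.69 and 13.4 CPM in tumours at 150 dpi.

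At 90 dpi, the contrast by which Atp13a5 was picked, all 10 genes were lower in CKO than in WT animals. Atp13a5 was at 56.9 (WT_21167), 45.5, 30.9, 23.7 and 38.7 CPM in the 5 WT animals, and in the 7 CKO animals at 9.23 (CKO_20647) at the lowest, 11.5 at the median and 19.4 at the highest. In CKO_20647 the library ACTAA alone had 15.9 CPM and GAGCT 0. The groups did not overlap, and the log2 change was -1.50 (SE 0.28). Pdgfrb, the PDGF receptor on which mural recruitment depends, was the other gene without overlap: 37.9, 36.2, 23.9, 21.5 and 27.1 CPM in WT against 5.12 to 15.4 CPM (median 12.3) in CKO animals, a log2 change of -1.32. Of all genes 0.312% were lower without overlap and 0.0245% passed the threshold for lower genes in the fit, from which nothing is read here for genes chosen on this contrast.

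The remaining 8 genes overlapped at 90 dpi. Vtn had 94.8, 98.3, 61.1, 52.2 and 78.8 CPM in WT animals and 18.4 to 55.8 (median 29.2) in CKO animals, of which only CKO_22149 reached the WT range, and its log2 change was -1.27. The lowest was again CKO_20647, with 31.65 CPM of Vtn in ACTAA and 0 in GAGCT. Rgs5, the most abundant of the 10, had 274.9 to 435.5 CPM in WT and 153.9 to 278.6 in CKO animals (log2 change -0.70). The channel subunits Kcnj8 and Abcc9 had log2 changes of -1.28 and -1.01. Anpep, which encodes the surface peptidase aminopeptidase N (CD13), had -1.75, Higd1b, a hypoxia-inducible domain family gene, -1.58, Ndufa4l2, a mitochondrial protein, -1.17 and the receptor gene Notch3 -0.64. The median over the 10 was -1.28, with 10 of 10 below 0, against 44.8% of all genes. Without the library labelled GAGCT the median was -1.17 and Atp13a5 -1.38, and with any 1 animal left out the median was between -1.42 and -1.14.

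At 12 dpi CKO and WT animals overlapped for all 10 genes, with 0.606% of all genes lower without overlap. Atp13a5 was at 18.9, 31.3, 42.2, 29.6 and 40.2 CPM in the 5 WT animals and between 12.7 and 40.8 CPM (median 23.3) in the 7 CKO animals. Only 2 CKO animals lay below the WT range, and the log2 change of -0.49 (SE 0.28) was not called (edgeR adjusted p = 1). Vtn ran from 31.5 to 115.5 CPM in WT and from 22.6 to 71.8 in CKO animals (log2 change -0.67, SE 0.38), and Pdgfrb from 16.8 to 32.1 and from 13.0 to 39.4 (0.05, SE 0.39). Of the 10 genes 0 were called by edgeR or DESeq2, where 0.0183% of all genes were called, and 0 had an unadjusted p under 0.05 by either (4.85% of all genes by edgeR). Log2 changes were below 0 for 9 of 10 genes, against 45.7% of all genes, with a median of -0.36. The lowest was that of Ndufa4l2 at -0.98 (SE 0.53).

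The 3 other vascular marker lists lay below 0 at 12 dpi as well. The median log2 change was -0.60 over 12 smooth muscle genes, -0.38 over 18 endothelial genes (17 below 0) and -0.26 over 10 vascular fibroblast genes, and it was -0.47 over 19 other pericyte genes. Of the lists of other cells, microglia genes had a median of -0.24 (8 of 10 below 0), oligodendrocyte genes -0.10, OPC genes -0.04 and neuron genes 0.04, and 0 genes of these 8 lists were called. At 90 dpi the medians were -0.88 for other pericyte genes, -0.60 for endothelial, -0.45 for smooth muscle and -0.41 for vascular fibroblast genes, beside 0.71 for oligodendrocyte, 0.26 for microglia, 0.17 for OPC and 0.16 for neuron genes. The part of these shifts in the values of the 10 genes was not tested.

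In tumours at 150 dpi 7 of the 10 genes fell against WT animals, with 21.9% of all genes called lower. Atp13a5 was at 2.69 to 13.4 CPM in the 7 tumours (median 5.53) and at 21.5 to 46.2 CPM in the 6 WT animals (median 34.4). The groups did not overlap: the highest tumour, Tumor_16713, was below the lowest WT animal. The log2 change was -2.53 (SE 0.27, edgeR adjusted p = 1.19e-09). Rgs5 was the other gene without overlap, at 72.8 to 140.2 CPM (median 113.2) in tumours and 251 to 514.2 (median 340.2) in WT animals (log2 change -1.70, SE 0.20, edgeR adjusted p = 7.91e-09). Of all genes 8.96% were lower in tumours without overlap.

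Both channel subunits fell. Kcnj8 had 1.75 to 6.15 CPM (median 2.15) in tumours against 6.12 to 26.3 (median 10.9) in WT animals (log2 change -2.08, SE 0.35, edgeR adjusted p = 5.94e-06), and 6 of 7 tumours lay below every WT animal. Abcc9 had 6.19 to 29.0 CPM (median 12.7) against 19.6 to 51.4 (median 31.0), a log2 change of -1.37 (SE 0.27, edgeR adjusted p = 7.71e-05). Among the remaining markers Higd1b (-1.96, SE 0.44, edgeR adjusted p = 0.000377), Vtn (-1.23, SE 0.36, 0.00502) and Ndufa4l2 (-1.47, SE 0.50, 0.0137) fell too. Vtn ran from 8.27 to 82.4 CPM in tumours and from 53.8 to 103.7 CPM in WT animals. Vtn and Ndufa4l2 were not called when only the 2 groups were fitted (edgeR adjusted p = 0.0672 and 0.063), and Ndufa4l2 was not called without WT_21593 (0.0699).

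Pdgfrb, Notch3 and Anpep did not pass the test. Pdgfrb was at 4.88 to 9.40 CPM in 5 tumours and at 40.4 and 27.0 CPM in Tumor_16713 and Tumor_21354, against 17.6 to 30.7 CPM in WT animals, and its log2 change was -0.69 (SE 0.37, edgeR adjusted p = 0.125). It was called lower without Tumor_16713 (-1.15, edgeR adjusted p = 0.00441) and without Tumor_21354 (-0.99, 0.0300). The same 2 tumours held Anpep at 21.1 and 18.3 CPM, where the other 5 had at most 3.30 CPM, and the log2 change of Anpep was 0.10 (SE 0.66). Notch3 had 9.30 to 20.5 CPM (median 10.5) in tumours and 8.71 to 25.6 (median 13.0) in WT animals (log2 change -0.26, SE 0.25, edgeR adjusted p = 0.431). In these 2 tumours the 10 vascular fibroblast genes summed to 907.3 and 425 CPM (46.9 to 148.1 in the other 5, 32.9 to 104.7 in WT animals) and the smooth muscle genes to 171.5 and 102.4 CPM (40.7 to 73.1 in the other 5). Their part in the values of Pdgfrb and Anpep was not tested.

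The median log2 change of the 10 genes in tumours was -1.42, with 9 of 10 below 0, against a median of 0.06 and 47.3% of all genes. RLE scaling raised the median of all genes by 0.15 and moved the share of higher among called genes from 52.6% to 62.05%. Relative to the median of all genes Atp13a5 was at -2.59 with TMM and -2.58 with RLE scaling. DESeq2 also called 7 of the 10 lower, and of all genes it called 4983 higher and 3034 lower.

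**Figure D2:**
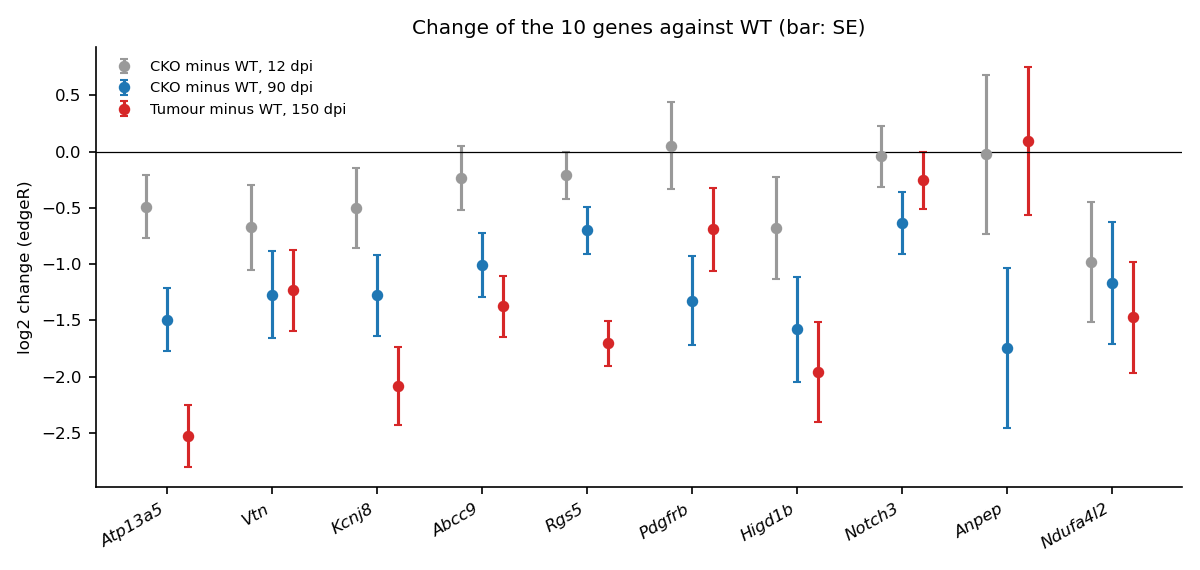
Fitted log2 change (y axis) of each of the 10 genes (x axis) for CKO against WT at 12 dpi, CKO against WT at 90 dpi and tumour against WT at 150 dpi. Points are fitted changes and bars are SEs. Atp13a5 has -0.49, -1.50 and -2.53 in these contrasts, and the 90 dpi contrast is the one used to choose it.

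The difference between mutant and WT animals was larger at 150 than at 12 dpi for 4 of the 10 genes, in a test of the difference itself between contrasts that share no animal. The 4 were Atp13a5 (difference of log2 changes -2.04, SE 0.39, edgeR adjusted p = 8.57e-05), Rgs5 (-1.50, SE 0.29, 0.000123), Kcnj8 (-1.58, SE 0.50, 0.0134) and Abcc9 (-1.14, SE 0.39, 0.0246), all lower. Of all genes 16% were called lower here. Higd1b (-1.28, edgeR adjusted p = 0.129) and Pdgfrb (-0.75, 0.310) were not called, and the median over the 10 was -0.94. Abcc9 was not called by DESeq2 (adjusted p = 0.0509), with RLE scaling (edgeR adjusted p = 0.0628) or with only the deepest library of each animal (0.072). Nor was it called without CKO_21724 (edgeR adjusted p = 0.0521), without WT_22280 (0.0569) or without WT_21591 (0.0716). Pdgfrb was called without Tumor_16713 (-1.28, edgeR adjusted p = 0.0376). The mutant samples at 150 dpi are tumours and those at 12 dpi are not, so that tumour tissue and the time since tamoxifen cannot be told apart in this comparison.

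Tumours were also set against CKO animals at 90 dpi. Here Atp13a5 is given as a description, since these CKO animals served to choose it: 2.69 to 13.4 CPM in tumours and 9.23 to 19.4 CPM at 90 dpi, with 6 of 7 tumours below every CKO animal and a log2 change of -1.01 (SE 0.26). Of the other 9 genes, 1 fell and 2 rose, with 22.6% of all genes called lower, 26.4% higher and 49.1% in either direction. Rgs5 fell by 0.86 on the log2 scale (SE 0.19, edgeR adjusted p = 0.000326), from 153.9 to 278.6 CPM at 90 dpi to 72.8 to 140.2 CPM in tumours, without overlap, as for 10.5% of all genes. Notch3 rose from 5.01 to 11.4 CPM to 9.30 to 20.5 CPM (log2 change 0.67, SE 0.25, edgeR adjusted p = 0.0229). Anpep rose by 1.52 (SE 0.64, edgeR adjusted p = 0.048), with Tumor_16713 and Tumor_21354 above every CKO animal.

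Both rises lost their call in several settings, and they rest on the CKO animals by which Atp13a5 was chosen. Without the library labelled GAGCT Notch3 was called (0.57, edgeR adjusted p = 0.0450) and Anpep was not (1.47, 0.0511). Notch3 was not called without CKO_20647 (edgeR adjusted p = 0.0606), CKO_22154 (0.0549) or Tumor_21354 (0.0773), and Anpep was not called without any 1 of CKO_20647, CKO_22146, CKO_22149, CKO_22152, CKO_22154, CKO_22212, Tumor_16713 and Tumor_21354 (edgeR adjusted p = 0.0537 to 0.294). Log2 changes of the remaining 6 genes were between -0.62 (Kcnj8, edgeR adjusted p = 0.116) and 0.47 (Ndufa4l2, 0.430). Pdgfrb, at 0.37, was at -0.14 without Tumor_16713.

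In CKO animals all 10 genes had log2 changes below 0 from 12 to 90 dpi, against 47.4% of all genes, but 0 of the 9 that could be tested were called by edgeR or DESeq2, as were 0% of all genes by edgeR. Unadjusted p was under 0.05 for 6 of the 9 by edgeR and 7 by DESeq2, all lower, beside 1.93% of all genes lower by edgeR. The CKO animals at 90 dpi served to choose Atp13a5, which the other 9 followed within groups (Spearman 0.32 to 0.82). These counts are therefore not independent of the choice. Pdgfrb went from 13.0 to 39.4 CPM (median 22.9) at 12 dpi to 5.12 to 15.4 CPM (median 12.3) at 90 dpi, and 6 of 7 animals at 90 dpi lay below every animal at 12 dpi (log2 change -1.19, SE 0.35, edgeR adjusted p = 1). That count of 6 rests on narrow margins. CKO_20647 was among them at 7.71 CPM, with 13.25 CPM in its library ACTAA and 0 in GAGCT. CKO_20642 stood at 12.91 CPM, against 12.96 CPM in CKO_21725, the lowest animal at 12 dpi. The changes of the other 9 genes were -1.27 (Anpep), -1.02 (Higd1b), -0.90 (Atp13a5, as a description), -0.80 (Notch3), -0.67 (Kcnj8), -0.61 (Abcc9), -0.60 (Vtn), -0.43 (Rgs5) and -0.37 (Ndufa4l2). Without the library labelled GAGCT the 10 changes ran from -1.23 (Anpep) to -0.31 (Ndufa4l2), with Pdgfrb at -1.09 and Atp13a5 at -0.80, and 0 of the 9 were called.

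In WT animals no change between times passed the test. Of the 9 genes 0 were called from 12 to 90 dpi (0.00612% of all genes) or from 90 to 150 dpi (0.0183%), and 0 had an unadjusted p under 0.05 by edgeR or DESeq2 (4.86% and 8.26% of all genes by edgeR). Median log2 changes over the 10 were 0.08 and 0.16. Over the 9 they were 0.06 and 0.18, and 0.08 and 0.17 without WT_21167, where 0 were called as well. Values of Atp13a5 are a description, since the WT and CKO animals at 90 dpi served to choose it. Its log2 changes in WT animals were 0.10 (SE 0.31) and 0.03 (SE 0.30), with means of 32.4 ± 9.32 CPM (SD, n = 5), 39.1 ± 12.9 (n = 5) and 34.7 ± 9.55 (n = 6) at 12, 90 and 150 dpi. In CKO animals and tumours the means of Atp13a5 were 24.9 ± 10.1, 13.0 ± 3.50 and 6.26 ± 3.45 CPM (n = 7 each).

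Of 19 further pericyte markers tested in tumours, 3 rose and 4 fell, with a median log2 change of -0.38. Over all genes 24.3% were called higher and 21.9% lower. DESeq2 called 3 higher and 3 lower, beside 4983 higher and 3034 lower of all genes. Enpep, which encodes aminopeptidase A, went from 4.34 to 11.0 CPM in WT animals to 0.566 to 2.94 CPM in tumours without overlap (log2 change -1.89, edgeR adjusted p = 0.000417), and Zic1, a zinc finger transcription factor, fell by 1.47 (edgeR adjusted p = 0.00699). Tbx18, a T-box transcription factor of mural cells, rose (log2 change 2.49, edgeR adjusted p = 0.00241), as did the integrin gene Itga7 (2.30, 0.00239) and the adhesion molecule gene Mcam (CD146; 1.03, 0.00479).

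For the other cells of the vessel wall the counts are set against the same 24.3% higher and 21.9% lower of all genes. Of 18 endothelial genes 1 rose and 3 fell in tumours: Vwf (von Willebrand factor) by 0.91 (edgeR adjusted p = 0.0283) upward, and the transporter gene Slco1a4 (-1.12, 0.00349), the sialomucin gene Emcn (-0.98, 0.0239) and the VEGF receptor gene Flt1 (-0.78, 0.00443) downward. Emcn was not called by DESeq2 (adjusted p = 0.0503). Of 12 smooth muscle genes 2 rose, Acta2 (2.68, edgeR adjusted p = 0.0264) and Des (1.75, 0.0210), and 3 fell, Nrip2 (-2.02, 4.8e-10), Mylk (-1.42, 0.00106) and Kcnmb1 (-1.25, 0.0190). Of 10 vascular fibroblast genes 9 rose and 0 fell, led by the collagen gene Col3a1 (4.03, edgeR adjusted p = 0.00253), with a median of 2.30.

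Signals of mural recruitment were tested as a list of 14 genes, of which 6 rose and 2 fell in tumours, with a median log2 change of 0.55, beside the 24.3% higher and 21.9% lower of all genes. DESeq2 called 7 higher and 1 lower, beside 4983 higher and 3034 lower of all genes. The ligand gene Pdgfb, whose product acts on the receptor encoded by Pdgfrb, fell by 1.00 (edgeR adjusted p = 0.00704), and Cdh2 (N-cadherin) fell by 0.41 (0.00974), a call that DESeq2 did not make (adjusted p = 0.0743). Angpt1, the angiopoietin of the mural cell, rose (2.41, edgeR adjusted p = 0.00014), as did Tgfb1 (2.22, 0.000552) and the receptor gene Tgfbr2 (1.61, 8.92e-05). Lists of the other cell types moved as well: 10 of 13 OPC genes and 9 of 10 microglia genes rose, 0 of either fell, and 9 of 10 neuron genes fell and 0 rose (medians 1.45, 2.25 and -3.42).

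The relatives of the 10 genes were tested as a list of 13, of which 4 rose and 6 fell in tumours, with 24.3% of all genes higher and 21.9% lower. Of the ATP13A family Atp13a3 (log2 change 1.01, edgeR adjusted p = 0.000474) and Atp13a1 (0.69, 0.00135) rose, while Atp13a4 (-0.29) and Atp13a2 (-0.26) were not called. Notch1 rose by 2.00 (edgeR adjusted p = 8.37e-10) and Notch2 fell by 0.51 (0.0182), while Notch4, the endothelial receptor, was at -0.10 and not called. Pdgfra, the PDGF receptor of OPCs, rose (1.54, edgeR adjusted p = 3.23e-06). Kcnj11 and Abcc8, which encode the other pore and sulfonylurea receptor of ATP-sensitive channels and are active in neurons, fell by 2.06 (edgeR adjusted p = 0.000199) and 1.85 (0.0110). Rgs4 (-2.15, edgeR adjusted p = 0.000301), Higd1a (-1.58, 1.94e-06) and Ndufa4 (-0.52, 0.0388) fell too. DESeq2 called 4 of the 13 higher and 2 lower, beside 4983 higher and 3034 lower of all genes. Notch2 (DESeq2 adjusted p = 0.0980) and Ndufa4 (0.123) were not called by DESeq2, which gave no adjusted p for Abcc8 and Rgs4.

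**Figure D3:**
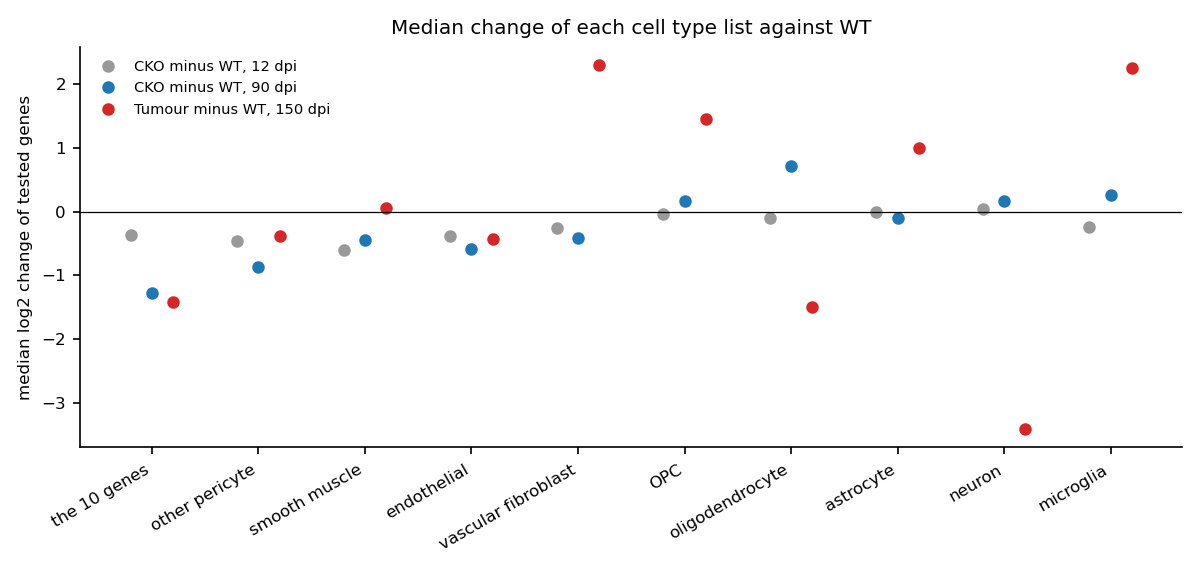
Median log2 change of tested genes (y axis) for the 10 pericyte genes and the marker lists of other cells (x axis), for CKO against WT at 12 and 90 dpi and tumour against WT at 150 dpi. The 10 genes have medians of -0.36, -1.28 and -1.42, while the vascular fibroblast list is at -0.26, -0.41 and 2.30.

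All of the 10 genes were found in small libraries of 10 cells. At 12 dpi Atp13a5 had an expected count of at least 1 in 43 of 56 10-cell libraries (76.8%, exact binomial 95% interval 63.6 to 87.0%) and in 35 of 40 pool-and-split libraries (87.5%, 73.2 to 95.8%). At 90 dpi it was found in 54 of 56 (96.4%, 87.7 to 99.6%) and 31 of 40 (77.5%, 61.6 to 89.2%). Its level was uneven: in 10-cell libraries at 12 dpi it ran from 0 to 1374 CPM with a median of 15.8, and the top 10% of libraries held 51.6% of it. Medians of the other 3 kinds were 74.0 CPM (pool-and-split, 12 dpi), 60.4 (10-cell, 90 dpi) and 23.1 (pool-and-split, 90 dpi). Libraries of a set share their source, and the intervals cover the counting of libraries only.

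Vtn was the most abundant of the 10 in CPM, with medians of 1028 and 664.9 CPM in 10-cell libraries at 12 and 90 dpi, and it was found in 48 of 56 and 56 of 56. Pool-and-split libraries had it in 40 of 40 at both times. Anpep was found least often, in 10 of 56 and 12 of 56 10-cell libraries and 8 of 40 and 3 of 40 pool-and-split libraries. The shares of the other 7 genes in 10-cell libraries at 12 dpi were between 60.7% (Ndufa4l2) and 85.7% (Abcc9). Small libraries were amplified by PCR and bulk libraries linearly, so levels are not compared between them.

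A median of 8 of the 10 genes was found in a 10-cell library at 12 dpi and 9 at 90 dpi, and 8.5 and 8 in pool-and-split libraries. Libraries with 3 or fewer numbered 10 of 56 10-cell libraries at 12 dpi, against 1 of 40 pool-and-split libraries, 0 of 56 and 0 of 40 at 90 dpi. These 10 came from all 4 sets at that time (3, 1, 1 and 5). The number of the 10 genes found had a Spearman correlation of 0.12 with the number of all genes found over these 56 libraries, as a description, and of 0.11 in 10-cell libraries at 90 dpi. It was 0.38 and 0.54 in pool-and-split libraries at 12 and 90 dpi. Their summed level ran from 0 to 8991 CPM (median 2291) at 12 dpi and from 282.6 to 8347 CPM (median 1497) at 90 dpi in 10-cell libraries, and from 116.9 to 4813 (median 2049) and 59.1 to 3756 (median 1830) in pool-and-split libraries. A median of 7406 genes was found in 10-cell libraries at 12 dpi and of 9979 at 90 dpi.

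**Figure D4:**
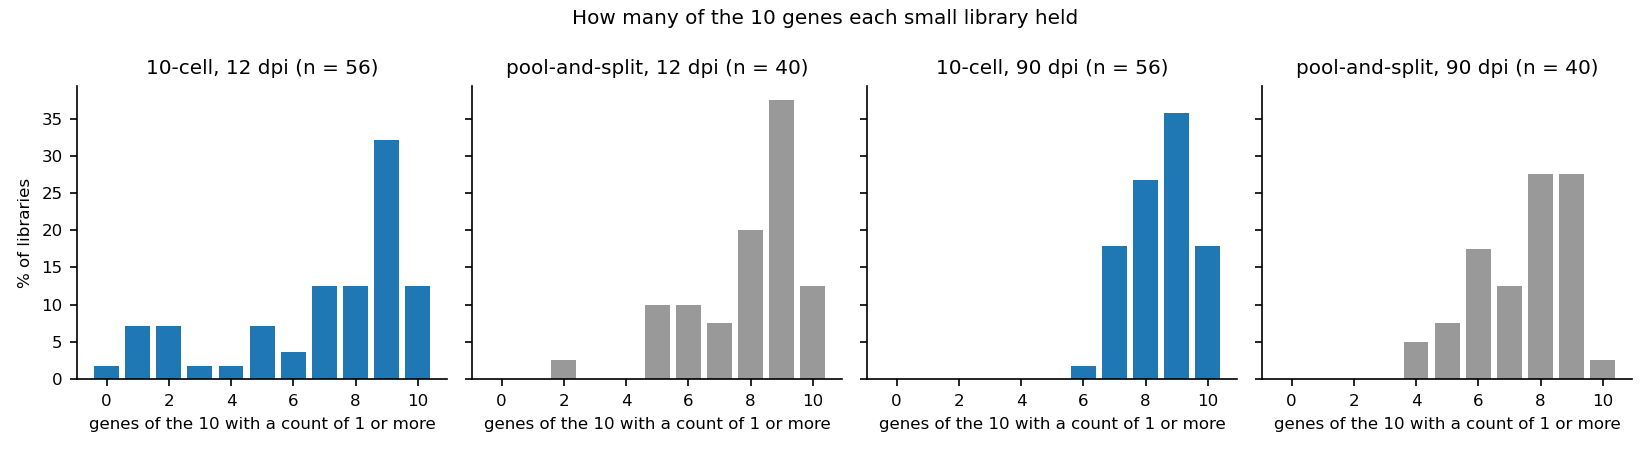
Share of small libraries (y axis, %) by how many of the 10 pericyte genes had a count of at least 1 (x axis), for 10-cell and pool-and-split libraries at 12 and 90 dpi. Of the 10-cell libraries at 12 dpi 10 of 56 held 3 or fewer, against 0 of 56 at 90 dpi.

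Summed over the libraries of a set (4 sets per time, by sex and the number that ends the label), Atp13a5 in 10-cell libraries was at 27.3, 514.1, 252.1 and 302.1 CPM at 12 dpi and at 62.9, 44.7, 204.4 and 121.1 CPM at 90 dpi. The sets overlapped, and the log2 change of -1.55 (SE 0.77) was not called (edgeR adjusted p = 0.699). In pool-and-split libraries the same sets had 15.7, 482.2, 143 and 265.6 CPM at 12 dpi and 75.7, 36.4, 253.7 and 126.0 CPM at 90 dpi (log2 change -1.13, SE 0.93, edgeR adjusted p = 0.799). Female set 2 was the highest and female set 1 the lowest in both kinds at 12 dpi. Without female set 2 at 12 dpi the log2 change of Atp13a5 was 0.57 in pool-and-split libraries.

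Of the 10 genes 0 were called between 90 and 12 dpi in 10-cell libraries by edgeR (0% of all genes) or DESeq2, and unadjusted p was under 0.05 for 0 by edgeR and 1 by DESeq2 (7.31% of all genes by edgeR). In pool-and-split libraries 0 were called (0% of all genes) and 0 had an unadjusted p under 0.05 by either tool (7.92% of all genes by edgeR). Log2 changes were below 0 for 9 and 8 of the 10, with 51.8% and 51.2% of all genes, and medians were -0.55 and -0.40.

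The spread between libraries of a set was compared between 10-cell and pool-and-split libraries for 9 of the 10 genes, leaving out Anpep, which was found in too few. It is given as the mean absolute deviation of log2(CPM + 1) from the median of the set, scaled for the number of libraries in it. Libraries of a set share their source, so that p-values over libraries are too small. At 12 dpi Vtn had 2.94 in 10-cell and 0.82 in pool-and-split libraries, and its SD was larger in 10-cell libraries in 4 of 4 sets. The difference of 2.12 (SE 0.52) was not called (limma adjusted p = 0.108), but it was with a pseudocount of 0.1 (0.0437) or when only genes found in 90% of libraries were tested (0.0422). Atp13a5 had 2.82 and 1.93 at 12 dpi (difference 0.89, SE 0.45, limma adjusted p = 0.537). At 90 dpi the order was the other way, with 1.85 in 10-cell and 2.96 in pool-and-split libraries (difference -1.12, SE 0.40, limma adjusted p = 0.163), and 0 of 4 sets had the larger SD in 10-cell libraries. Over the 9 genes limma called 0 at either time, where 0.0257% and 0.617% of all genes were called. Unadjusted p was under 0.05 for 3 at 12 dpi (Vtn, Pdgfrb and Kcnj8, larger in 10-cell libraries), with 9.51% of all genes, and for 3 at 90 dpi (Higd1b, Kcnj8 and Atp13a5, smaller), with 13.5%. Whether the difference itself changed between times was not tested.

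Over the 37 bulk animals the log2 CPM of Atp13a5 was followed most closely by that of Rgs5 (Spearman 0.89), Kcnj8 (0.88) and Vtn (0.86), ranks 1 to 3 of 16348 genes. The fourth was the endothelial transporter gene Slco1a4 (0.84) and the fifth Abcc9 (0.80). Pdgfrb had rank 9 (0.74), Higd1b rank 45, Ndufa4l2 rank 68, Anpep rank 75 and Notch3 rank 497 (0.47), and the median of all genes was -0.03. These values hold the differences between groups, including the one used for the choice, and all genes of an animal share its library, depth and tissue. After centring on the group, Vtn (0.82) and Anpep (0.75) had ranks 1 and 2, and Higd1b had rank 606 (0.32). Without WT_21167 and CKO_20647, which holds the library labelled GAGCT, the ranks moved in both directions. Vtn stayed at rank 1 (0.82), Rgs5 went from rank 10 to 3 (0.75), Abcc9 from 41 to 5 (0.70) and Higd1b from 606 to 111 (0.52). The others moved away: Anpep from 2 to 4, Pdgfrb from 6 to 13, Kcnj8 from 8 to 17, Ndufa4l2 from 9 to 31 and Notch3 from 51 to 150. Over the 30 animals without tumours, centred in the same way, the first 5 were Vtn (0.85), Kcnj8 (0.82), Parvb (0.77), Slco1a4 (0.77) and Anpep (0.72). Without both animals Vtn (0.84), Ptprb (0.83), Rgs5 (0.81) and Kcnj8 (0.80) were ranks 1 to 4. Abcc9 went from rank 34 to 7 and Higd1b from 1100 to 134, while Anpep went from 5 to 13. Pdgfrb went from 13 to 59, Ndufa4l2 from 19 to 109 and Notch3 from 74 to 221.

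All 45 pairs of the 10 genes had a correlation above 0 over the 37 centred animals, with a median of 0.50 (0.020 to 0.82), and likewise without WT_21167 and CKO_20647 (median 0.52, 0.14 to 0.82). In small libraries centred on the set, the median over pairs was 0.45 in 10-cell libraries at 12 dpi (n = 56, 45 of 45 pairs above 0) and 0.0084 in pool-and-split libraries (n = 40, 24 of 45). At 90 dpi the medians were 0.31 (n = 56, 43 of 45) and 0.24 (n = 40, 40 of 45). Over the 37 centred animals the summed level of the 10 genes correlated with that of endothelial genes at 0.72, of vascular fibroblast genes at 0.58, of smooth muscle genes at 0.46 and of the other pericyte list at 0.43. Near the last stood oligodendrocyte (0.40) and microglia genes (0.40), while OPC genes were at 0.22, astrocyte genes at 0.11 and neuron genes at -0.38. In small libraries it correlated with the other pericyte list at 0.87 in 10-cell libraries at 12 dpi and at 0.76 at 90 dpi, and with endothelial genes at 0.73 and 0.38. With OPC genes it correlated at -0.46 and -0.29, with astrocyte genes at 0.43 and 0.24 and with microglia genes at 0.36 and 0.35. In pool-and-split libraries at 12 dpi the values were 0.054 for other pericyte, 0.35 for endothelial and -0.22 for OPC genes, and at 90 dpi oligodendrocyte genes (0.45) stood above other pericyte genes (0.41). Over the 10-cell libraries of both times the genes closest to the summed level of the others were Higd1b (0.75), Vtn (0.75), the myosin light chain gene Myl9 (0.72), Igfbp7 (0.69) and the proteoglycan gene Bgn (0.68). Values in small libraries share the total of a library, by which each was scaled. A summed level weighs each gene by its CPM. Rgs5 was the largest part of it in bulk animals, and Vtn in 10-cell libraries (means of 1087 and 982.5 CPM at 12 and 90 dpi).

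**Figure D5:**
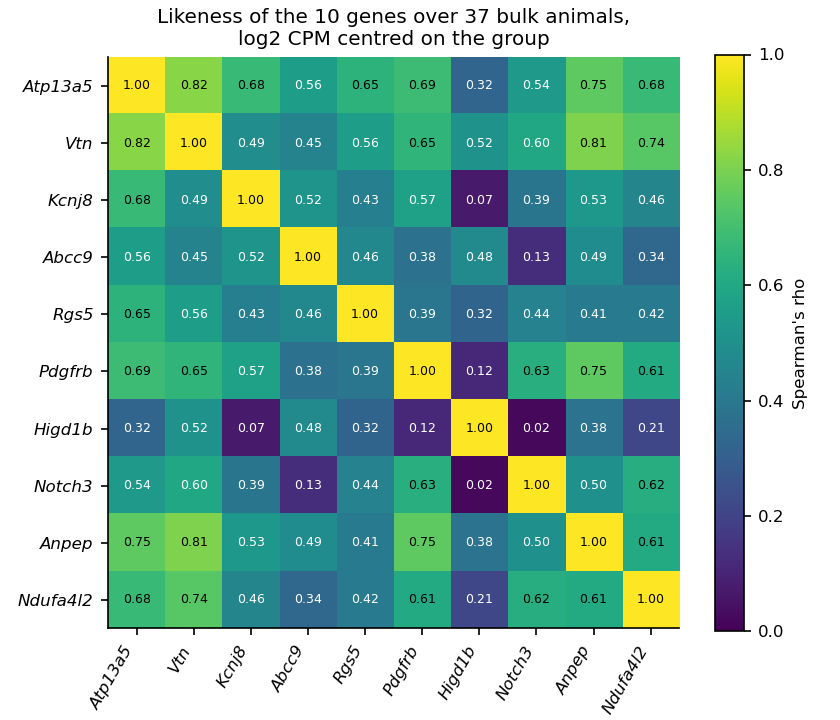
Spearman correlation (colour) of log2 CPM between the 10 pericyte genes over 37 bulk animals, after centring on the group. Atp13a5 has 0.82 with Vtn and 0.32 with Higd1b, and all 45 pairs are above 0.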

How the data were processed

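Bulk and small libraries of laser-captured cells were analysed from 1 deposited table of expected counts per gene, which the authors made with RSEM and Bowtie2 on GRCm38, per the submitters' processing notes (versions are not given in the sources used here). Of its values 13.6% were not whole, and 92 spike-in features were left out. Bulk libraries used T7 linear amplification and small ones PCR, per the labels' protocols. The members and gene lists were chosen with earlier results of these data known.

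Expected counts of an animal's libraries (11 animals had 2) were summed and rounded. All 37 animals entered 1 edgeR 4.0.16 quasi-likelihood fit (R 4.3.3) with TMM scaling, sex as a covariate and filterByExpr (minimum count 10, minimum total 15), which left 16349 genes, all 10 members among them. Small libraries were summed by set (15190 genes tested in 10-cell, 14235 in pool-and-split libraries). A gene was called at an adjusted p below 0.05 (Benjamini-Hochberg, every tested gene of the fit). Spread was tested with limma 3.58.1 on genes detected in 50% of libraries. DESeq2 1.42.0 and the other alternatives are in the closing section. The fits were tested on simulated data. The labels do not say what the number that ends a small library's label is, and p-values measure the spread between these samples. Correlations of log2 CPM used a prior count of 2.

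All 10 members and all genes of the relatives list could be named. Of the other lists the 3 largest rises and falls among called genes, and of likeness the 5 highest, were nameable. The values of 1 gene of the other pericyte list are not reported here.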

Additional observations from a re-analysis of the deposited data

Results flagged for a closer look

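In 60 groups of a gene's values by animal, 10 had a highest animal that stood far from the others of its group, as did 0 of 40 groups of sets of small libraries. The limits used give about 1 such group in 20 for independent, normally distributed values. The groups here hold CPM without a log scale and share animals, so that rate does not apply to them. In tumours these were Tumor_16713 for Atp13a5 (13.4 CPM) and Abcc9 (29.0 CPM) and Tumor_21354 for Notch3 (20.5 CPM). In WT animals at 150 dpi they were WT_22064 for Kcnj8 (26.3 CPM) and Higd1b (17.2 CPM) and WT_21593 for Anpep (16.0 CPM). In CKO animals they were CKO_22017 for Kcnj8 (19.3 CPM) and CKO_22363 for Ndufa4l2 (4.00 CPM) at 12 dpi and CKO_22149 for Vtn (55.8 CPM) at 90 dpi. Ndufa4l2 at 9.48 CPM in WT_21167 at 90 dpi was 1 count in the shallowest animal.

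The difference between mutant and WT animals was not the same at 150 and 12 dpi for 4 genes by the edgeR test of the difference: Atp13a5 (-2.04), Kcnj8 (-1.58), Rgs5 (-1.50) and Abcc9 (-1.14, log2). Abcc9 lost this call in several settings.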

How the results depend on the processing

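Of the members' results under alternatives that kept all animals, 700 kept their call or lack of one, 11 lost and 2 gained a call. With 1 animal or set left out, 1150 kept it, 15 lost and 3 gained a call, and 5 changed sign. A change of sign was counted only for called values or values at least as large as their SE. Smaller uncalled values that changed sign are among the 700 and 1150. For tumours against CKO at 90 dpi, 1 of the 9 genes was called with no filter and 1 with only the groups compared, where 3 were called, and 1 to 3 with 1 animal left out. For tumours against WT, 4 of the 6 genes left were called with a mean of at least 10 CPM, and 6 to 8 of 10 with 1 animal left out. For the difference between 150 and 12 dpi 3 to 5 were called. The median log2 change at 90 dpi was -1.424 to -1.138. Spread at 12 dpi gave 1 called gene with a pseudocount of 0.1 and 1 with detection in 90% of libraries, which left 1 of the 10 to test. The sign changed for Pdgfrb in tumours against CKO at 90 dpi without Tumor_16713 (-0.143, with a highest value of 0.56 over the animals left out), Notch3 in tumours against WT without WT_21593 (0.056, lowest -0.413), Vtn in 10-cell libraries (0.193, lowest -0.845) and Atp13a5 in pool-and-split libraries (0.569, lowest -1.546) without female set 2 at 12 dpi, and the spread of Abcc9 at 90 dpi without female set 1 (0.024, lowest -0.595). The cause was not tested. Leaving out the library labelled GAGCT, and both WT_21167 and CKO_20647 for the correlations, was chosen after seeing the data.

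Sets with the same sex and number at 12 and 90 dpi had correlations of -0.039 to 0.019, and 0 of them correlated best with their own number, so the numbers were not taken as a pairing. With the replicate block 0 of 10 genes were called in either kind of small library, and Atp13a5 was at -0.942 in 10-cell and -0.324 in pool-and-split libraries. Depth limits WT_21167 most.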
